A study of Homo sapiens with 4 samples.

Results

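Ribosome biogenesis and RNA polymerase I are represented here by 41 genes, chosen by matching a list of symbols to the gene names in the files, out of 60617 genes listed and 17207 tested. All 41 were found, and all 41 had enough counts to be tested, the smallest being 108 counts in a library. The libraries were poly-A RNA of spheres of U87MG, a glioblastoma cell line of human origin, kept in DMEM/F12 with N2, 2% B27 and the growth factors EGF and bFGF (both 20 ng/ml). One group was left untreated (2 libraries) and the other received abemaciclib, a drug that blocks the cell-cycle kinases CDK4 and CDK6 (2 libraries), and both were taken at 14 days. The dose, and whether the untreated spheres received a vehicle, are not stated in any source used here. Both groups share the same single line, and nothing in the labels says that the 2 libraries of a group came from separate cultures, so the p-values cover the library-to-library spread alone, and that spread may be technical.

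Ribosomes are assembled in the nucleolus. RNA polymerase I copies the ribosomal DNA into a long precursor RNA, small nucleolar ribonucleoproteins (snoRNPs) guide its methylation and pseudouridylation, and a large set of assembly factors folds, cuts and loads it with ribosomal proteins to give the small and the large subunit. Growing tumour cells make many ribosomes, and the transcription factor MYC is known as an activator of the genes involved. Poly-A libraries record the messenger RNAs of these proteins, not the ribosomal RNA itself.

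Libraries held 23684260 to 33418075 expected counts, estimates of the reads from each gene. Replicate libraries were not copies of each other, since their counts varied beyond sampling noise (chi-square per degree of freedom 3.56 for the untreated and 1.95 for the abemaciclib libraries), so each counted as 1 sample. CDKN2A, a gene known to be deleted in U87MG, had 0 counts in all 4 libraries, and MTAP beside it had 1 count in all, while VIM, the intermediate filament gene vimentin, stood at 4330 to 6250 CPM (TMM-scaled CPM, the share of a library's counts taken by a gene). Marker lists of other cell types were also summed: 4 immune genes summed to 11.8 and 12.3 CPM untreated and 6.81 and 6.14 CPM after the drug, 3 endothelial genes to 13.8 and 14.9 against 7.52 and 7.0 CPM, 3 epithelial genes to 2.11 and 2.2 against 3.53 and 3.96 CPM, 3 neuronal genes to 46.8 and 48.5 against 63.6 and 59.3 CPM and 3 oligodendrocyte genes to 0.444 and 0.397 against 1.16 and 1.15 CPM. Among their defining members, the oligodendrocyte gene MOG was at 0 throughout, and PTPRC, CD3E, CDH5 and CDH1 had 18 counts or fewer in each library. The sums rested mainly on a few genes: CSF1R was at 10.9 and 11.5 CPM untreated and 5.77 and 5.31 CPM treated, PECAM1 at 9.78 in both untreated libraries and 1.37 and 0.915 CPM treated, and SNAP25 at 34.2 and 36.7 against 56.0 and 52.3 CPM. Some genes went against their list's sum. PTPRC was at 0.148 and 0.0917 CPM untreated and 0.748 and 0.413 CPM treated. The endothelial gene VWF was at 4.04 and 5.04 against 6.02 and 6.05 CPM. The neuronal gene SYT1 was at 12.2 and 11.5 against 7.23 and 6.85 CPM. The 5 glial and mesenchymal genes of the line itself summed to 13779.2 and 12998.8 CPM untreated and 6942.7 and 7003.8 CPM treated. TNC was at 4897.0 and 4708.0 against 961.6 and 939.0 CPM and CD44 at 1352.3 and 1330.6 against 490.3 and 469.4 CPM. The rest fell less: VIM was at 6250.0 and 5678.6 against 4329.7 and 4407.4 CPM, NES at 93.9 and 101.4 against 70.0 and 68.6 CPM. S100A6 was at 1186.0 and 1180.2 against 1091.2 and 1119.4 CPM. The part of these marker genes in the results was not tested. Mitochondrially encoded transcripts took 4.27% and 4.66% of the untreated libraries and 11.8% and 11.7% of the abemaciclib libraries, and with these genes left out before scaling the same numbers of the 41 genes were called (34 higher and 5 lower).

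Most genes of ribosome biogenesis were higher after abemaciclib. Of the 41 genes, 34 rose, 5 fell and 2 did not pass the test (adjusted p below 0.05 in edgeR's quasi-likelihood test, with the Benjamini-Hochberg adjustment over all 17207 genes). Over all tested genes, 38% were called higher and 39.3% lower, 77.3% in all. The median log2 fold change was 0.54 for the 41 genes, a 1.46-fold rise, and -0.01 for all genes tested. Most of the changes were moderate: 16 of the 41 rose and 1 fell by at least 1.5-fold, against 23.3% and 26.5% of all tested genes. The untreated and the abemaciclib libraries did not overlap in 40 of the 41 genes, LYAR being the exception, which stands against 87.9% of all tested genes. CPM values are relative to a library's scaled total, and in bulk samples fewer cells of a type and less RNA per cell cannot be told apart.

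The summed level of the 41 genes was 2077.0 and 2077.3 CPM in the untreated libraries and 2571.1 and 2561.4 CPM in the abemaciclib libraries. NPM1, with the highest CPM of them, made up 26.4% and 25.9% of that sum untreated and 17.8% and 17.2% after the drug. Without NPM1 the sums were 1527.7 and 1539.7 CPM against 2113.5 and 2120.0 CPM, so the summed level of the other 40 genes was higher in both treated libraries. Replicates lay close together, with a median ratio between the 2 libraries of a group of 1.05 (untreated) and 1.04 (abemaciclib) and a largest ratio of 1.18. The 13 genes above a mean of 50 CPM had a median log2 fold change of 0.45 and the 28 genes at or below it one of 0.58.

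**Figure D1:**
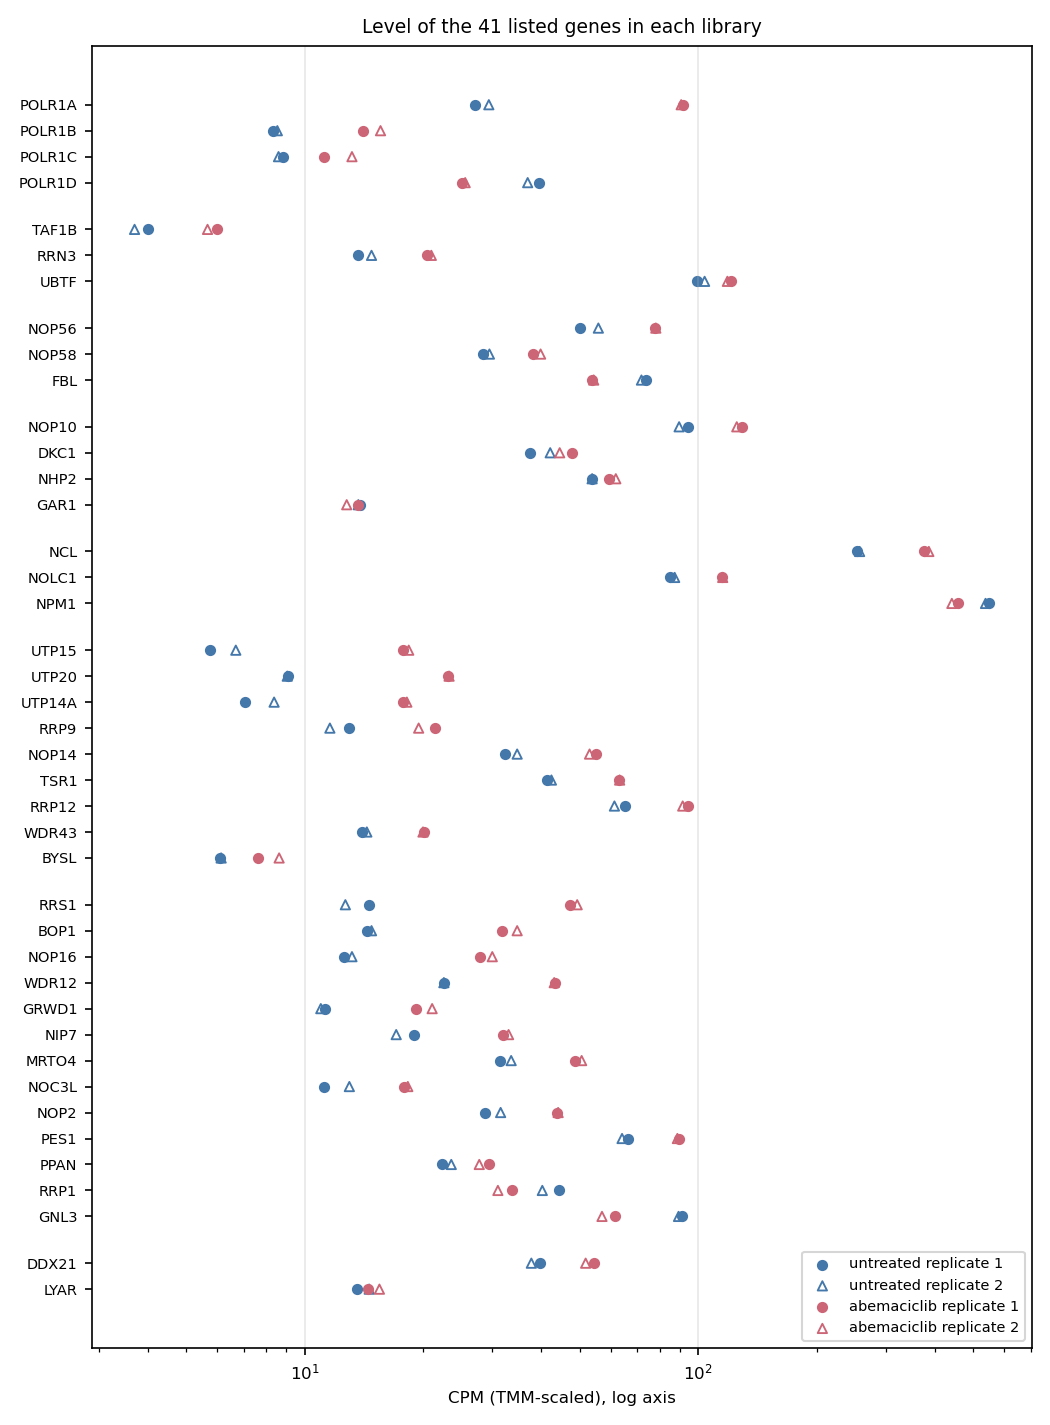
Level of each of the 41 genes in each library, in TMM-scaled CPM on a log axis, grouped by role and ordered within a role by change. Circles are replicate 1 and triangles replicate 2 (blue untreated, red abemaciclib). The values of the 2 groups do not overlap in 40 of the 41 rows, though in GAR1 the nearest libraries both round to 13.7 CPM. Red lies to the left of blue in POLR1D, FBL, NPM1, RRP1, GNL3 and, by less than the test could call, GAR1.

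Because MYC acts through the E-box CACGTG, the stretch of 250 bases before each RefSeq start site (GRCh38.p14) was searched for these letters, which read the same on both strands. Start sites were found for 36 of the 41 genes. NOP58, NOLC1, RRP12, BOP1 and RRS1 had no entry. The E-box was present before at least 1 start of 5 of the 36 genes (13.9%), against 7.73% of 27305 genes in the table and 13.6% of 132 other genes of the pathway. It lay before UTP20, UTP14A, NOP10 and DDX21, 4 of the 29 genes with an entry that rose (13.8%). It also lay before LYAR, 1 of the 2 genes that did not pass the test, and before 0 of the 5 genes that fell. These numbers are too small to set the genes that fell apart from those that rose. The 6 matches are shown within 30 bases each, 5′ to 3′ on the gene's strand, with the E-box in capitals.
LYAR (chr4:4290068-4290097, - strand, 64 bases before the start): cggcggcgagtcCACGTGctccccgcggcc
DDX21 (chr10:68956604-68956633, + strand, 31 bases before the start): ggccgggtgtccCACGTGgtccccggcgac
UTP20 (chr12:101280075-101280104, + strand, 10 bases before the start): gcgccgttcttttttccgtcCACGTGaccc
NOP10 (chr15:34343289-34343318, - strand, 170 bases before the start): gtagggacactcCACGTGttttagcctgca
NOP10 (chr15:34343137-34343166, - strand, 11 bases before the start): caggaaggaaattgacgaaCACGTGacgcg
UTP14A (chrX:129905914-129905943, + strand, 241 bases before the start): accttgggcCACGTGgaaaccaggggccag
A match describes the letters only, and binding was not measured. Most of the stretches searched lie partly or wholly in annotated exons, with all 250 bases so in, for example, POLR1A, UTP15 and NOP16. In the stretches with a match, 207 of the 250 bases lay in such exons for DDX21, 169 for LYAR, 113 for NOP10, 43 for UTP14A and 0 for UTP20. The whole 250 bases are shown for a gene that rose (UTP20) and for one that fell (POLR1D, first of its 2 listed starts), the latter holding no E-box. The pair is an example only, since most genes that rose held no E-box either.
UTP20 (chr12:101279855-101280104, + strand): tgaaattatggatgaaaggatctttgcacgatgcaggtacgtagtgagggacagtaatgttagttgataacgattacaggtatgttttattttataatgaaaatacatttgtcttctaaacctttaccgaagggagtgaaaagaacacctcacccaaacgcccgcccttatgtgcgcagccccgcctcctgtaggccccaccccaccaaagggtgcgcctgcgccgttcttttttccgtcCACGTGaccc
POLR1D (chr13:27620493-27620742, + strand): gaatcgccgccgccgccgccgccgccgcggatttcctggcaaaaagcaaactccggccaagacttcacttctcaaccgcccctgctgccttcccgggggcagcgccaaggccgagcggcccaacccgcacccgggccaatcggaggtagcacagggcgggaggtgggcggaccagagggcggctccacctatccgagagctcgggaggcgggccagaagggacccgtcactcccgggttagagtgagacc

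The subunits of RNA polymerase I went in different directions. POLR1A, its largest subunit and part of the catalytic centre (ENSG00000068654, GRCh38 chromosome 2, 86020216 to 86106155, minus strand), was at 27.1 and 29.4 CPM untreated and at 91.8 and 90.6 CPM after abemaciclib. That is a 3.22-fold rise with no overlap, or 1.69 ± 0.05 on the log2 scale (the error is the SE, edgeR adjusted p = 3.08e-24). POLR1B, which forms the active site with POLR1A, rose from 8.3 and 8.53 to 14.1 and 15.6 CPM (0.83 ± 0.10, edgeR adjusted p = 9.44e-09). POLR1C and POLR1D form the assembly platform of the enzyme and are shared with RNA polymerase III. POLR1C rose less (0.50 ± 0.11). POLR1D (ENSG00000186184, chromosome 13, 27620742 to 27744237, plus strand) fell from 39.4 and 36.9 to 25.2 and 25.6 CPM, or -0.58 ± 0.06 on the log2 scale (edgeR adjusted p = 5.87e-10). Both treated libraries were below both untreated ones. Groups without overlap, in either direction, were found in 87.9% of all tested genes. On the scale of CPM per kilobase of annotated exon, POLR1A stood at 0.571 and 0.661 times the level of POLR1D untreated. After the drug it stood at 3.02 and 2.93 times that level. This length covers every annotated exon of a gene, whether used in these cells or not, so the size of ratios between genes depends on it.

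The 3 factors that bring the polymerase to the ribosomal DNA promoter were all higher. UBTF, the HMG-box protein that occupies the ribosomal DNA, rose by 0.24 ± 0.04 on the log2 scale, from a mean of 101.5 to one of 120.1 CPM. RRN3, which makes the polymerase competent for initiation, rose by 0.54 ± 0.08. Numbered pseudogenes of RRN3 held 8.67% and 16.1% of its level untreated and 23.1% and 16.5% after the drug, so its value is uncertain where reads could be split. TAF1B, a subunit of the promoter selectivity factor SL1, had the lowest CPM of the 41 genes, 4.0 and 3.7 CPM untreated and 5.98 and 5.67 CPM treated (0.60 ± 0.15, edgeR adjusted p = 6.37e-04).

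Of 15 other components of this machinery, not among the 41 genes, 8 rose, 6 fell and 1 did not pass, with a median log2 fold change of 0.21. That is 53.3% higher and 40.0% lower, against 38% and 39.3% of all tested genes, so the share that fell was near that of all genes. POLR2L, a small subunit common to the nuclear RNA polymerases, went furthest up, from 65.5 and 61.6 to 216.1 and 208.8 CPM (1.74 ± 0.04, edgeR adjusted p = 1.83e-27). ZNRD1 (now POLR1H), a subunit of RNA polymerase I itself, went furthest down, from 8.96 and 10.3 to 4.78 and 4.31 CPM (-1.10 ± 0.13, edgeR adjusted p = 5.62e-09). Named after their values were seen, TWISTNB (now POLR1F) and CD3EAP (now POLR1G), the stalk and a bound subunit of the same enzyme, rose by 1.20 ± 0.09 and 0.77 ± 0.09. Within SL1, likewise named after their values were seen, TAF1C (-0.97 ± 0.05) and TAF1D (-0.88 ± 0.05) fell and TAF1A rose (0.43 ± 0.14), as TAF1B did, while TBP did not pass (-0.04 ± 0.10, edgeR adjusted p = 0.742).

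**Figure D2:**
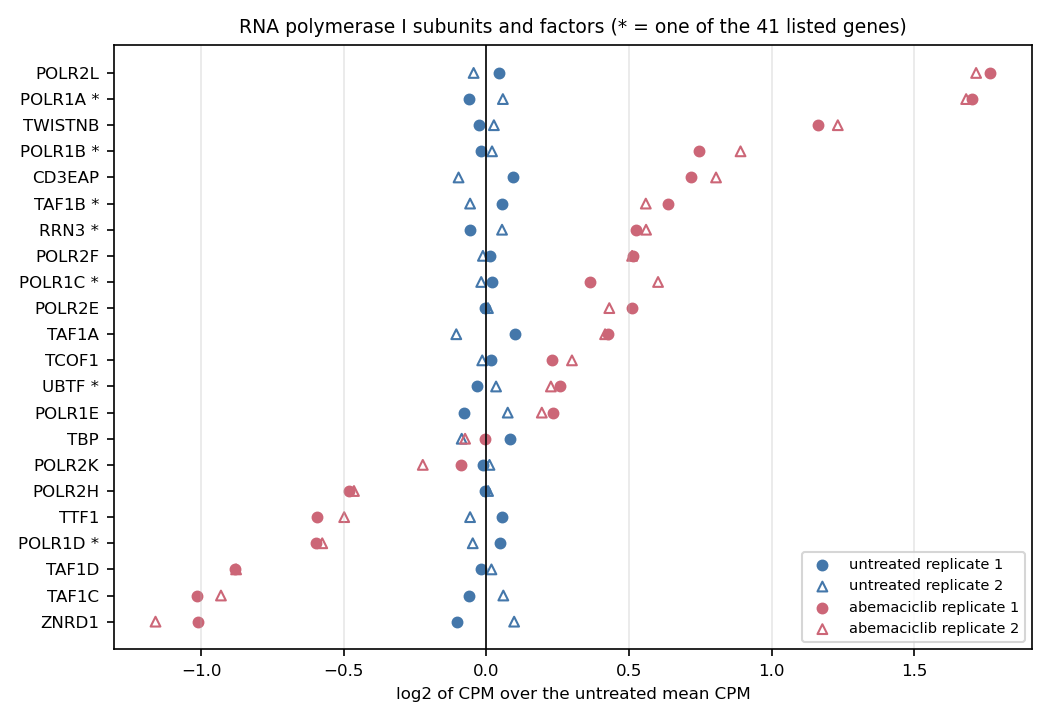
RNA polymerase I subunits and factors, each library as the log2 of its CPM over the untreated mean of that gene (circles replicate 1, triangles replicate 2, asterisks mark the 41 listed genes). POLR2L and POLR1A lie furthest to the right at log2 fold changes of 1.74 and 1.69, and ZNRD1 furthest to the left at -1.10.

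Among the core proteins of the box C/D snoRNPs, which guide ribose methylation, the scaffold proteins rose and the enzyme fell. NOP56 rose by 0.55 ± 0.05 on the log2 scale (means of 53.0 and 77.8 CPM) and its partner NOP58 by 0.43 ± 0.06. FBL, the methyltransferase fibrillarin (ENSG00000105202, chromosome 19, 39834458 to 39846414, minus strand), fell from 73.6 and 71.8 to 53.8 and 54.3 CPM (-0.43 ± 0.04, edgeR adjusted p = 2.03e-10). Per kilobase of exon, FBL was 3.65 and 3.19 times NOP56 untreated and 1.72 and 1.73 times NOP56 after the drug.

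The box H/ACA snoRNPs, which guide pseudouridylation and also bind telomerase RNA, had the lowest median change of the 8 role groups. The small protein NOP10 rose by 0.47 ± 0.04, NHP2 by 0.17 ± 0.05 and the pseudouridine synthase DKC1 by 0.21 ± 0.06 on the log2 scale. DKC1 depended on 1 library: without untreated replicate 1 its change was 0.13 ± 0.06 and no longer passed (edgeR adjusted p = 0.0558). GAR1, the remaining core protein, was at 13.8 and 13.7 CPM untreated and 13.7 and 12.8 CPM treated, a log2 fold change of -0.06 ± 0.09 that did not pass (edgeR adjusted p = 0.577). The median of these 4 genes was 0.19, against 0.54 for all 41. Per kilobase of annotated exon, NOP10 had the highest value of the 41 genes in both groups, at 166.1 CPM per kilobase untreated and 230.1 treated. NPM1 followed at 142.0 and 117.4, while UTP20, TAF1B and UTP15 were the lowest untreated at 0.904, 0.947 and 0.983. This order depends on the lengths used, 554 bases for NOP10 and 3828 for NPM1. In CPM, NPM1 was above NOP10, at means of 543.5 against 92.0 untreated and 449.5 against 127.5 treated.

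Of 3 abundant nucleolar proteins that act as chaperones and scaffolds, NCL and NOLC1 rose and NPM1 fell. NCL, nucleolin, a binder of precursor ribosomal RNA, went from means of 255.3 to 379.9 CPM (0.57 ± 0.03), and NOLC1, which ferries and anchors snoRNPs, rose by 0.42 ± 0.04. NPM1, nucleophosmin (ENSG00000181163, chromosome 5, 171387116 to 171411137, plus strand), fell from 549.4 and 537.5 to 457.6 and 441.4 CPM, or -0.27 ± 0.03 on the log2 scale (edgeR adjusted p = 1.56e-09). The treated libraries were both below the untreated ones, and 87.9% of all tested genes were likewise without overlap, in either direction. The files list 46 numbered NPM1 pseudogenes, which together held 4.21% to 4.52% of the NPM1 level in every library. NCL stood at 0.255 and 0.264 times NPM1 per kilobase of exon untreated, and at 0.452 and 0.483 times after the drug.

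All 9 factors of the small subunit rose, with a median log2 fold change of 0.68. UTP15, UTP14A and UTP20, parts of the processome that forms on the nascent precursor RNA, led. UTP15 (ENSG00000164338, chromosome 5, 73565443 to 73583377, plus strand) went from 5.74 and 6.69 to 17.8 and 18.4 CPM, a 2.9-fold rise (1.54 ± 0.10, edgeR adjusted p = 1.15e-14). UTP20 (ENSG00000120800, chromosome 12, 101280109 to 101386616, plus strand), whose upstream sequence is shown above, went from 9.07 and 9.04 to 23.1 and 23.3 CPM (1.36 ± 0.09, edgeR adjusted p = 3.58e-15). UTP14A (ENSG00000156697, chromosome X, 129906121 to 129929761, plus strand) went from 7.07 and 8.37 to 17.8 and 18.2 CPM (1.21 ± 0.10, edgeR adjusted p = 1.61e-12). In each of these 3 genes the lowest treated library was more than 2 times the highest untreated one.

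The other 6 moved less. RRP9, a protein of the U3 snoRNP, was at 13.0 and 11.6 CPM untreated and 21.5 and 19.5 CPM treated (0.74 ± 0.09). NOP14, a processome component, rose from 32.3 and 34.7 to 55.0 and 53.0 CPM (0.68 ± 0.05). TSR1, a late factor of the cytoplasmic precursor, rose from 41.2 and 42.4 to 62.8 and 63.2 CPM (0.59 ± 0.05). RRP12 (0.55 ± 0.04), which takes part in export, and the processome protein WDR43 (0.50 ± 0.08) rose without reaching 1.5-fold. BYSL, bystin, gave the smallest change of the 9 at 0.42 ± 0.12 (edgeR adjusted p = 3.17e-03). It missed the threshold without abemaciclib replicate 2 (0.33 ± 0.16, edgeR adjusted p = 0.0678) and in DESeq2 (adjusted p = 0.0552).

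Of the 13 factors of the large subunit, 11 rose and 2 fell, with a median of 0.61. RRS1, which helps to install the complex of 5S ribosomal RNA (ENSG00000179041, chromosome 8, 66429028 to 66430733, plus strand), had the largest change of all 41 genes. It was at 14.6 and 12.7 CPM untreated and 47.2 and 49.3 CPM treated, a 3.55-fold rise (1.83 ± 0.07, edgeR adjusted p = 4.87e-21). Its exon overlaps the gene AC009879.2 on the same strand, so reads could be shared. The 3 proteins of the PeBoW complex, needed for maturation of the large subunit RNA, rose to different degrees. BOP1 (ENSG00000261236, chromosome 8, 144262102 to 144291370, minus strand) went from 14.4 and 14.8 to 31.7 and 34.7 CPM (1.19 ± 0.07, edgeR adjusted p = 1.40e-15), and WDR12 from 22.6 in both untreated libraries to 43.2 and 43.1 CPM (0.93 ± 0.06). PES1, the third, rose by 0.45 ± 0.04.

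Further large subunit factors rose by at least 1.5-fold. NOP16 (ENSG00000048162, chromosome 5, 176383938 to 176388975, minus strand) went from 12.6 and 13.2 to 28.0 and 30 CPM (1.17 ± 0.08, edgeR adjusted p = 7.37e-15). GRWD1, a chaperone of a ribosomal protein, rose from 11.3 and 11.0 to 19.2 and 21.1 CPM (0.86 ± 0.09). NIP7 rose from 19.0 and 17.1 to 31.9 and 33.0 CPM (0.85 ± 0.07). MRTO4, which occupies the site of the ribosomal stalk during assembly, rose from 31.4 and 33.5 to 48.6 and 50.6 CPM (0.61 ± 0.055). In these 4 genes, too, the groups did not overlap, as in 87.9% of all tested genes. Smaller rises were seen in NOC3L (0.57 ± 0.09), the RNA cytosine methyltransferase NOP2 (0.54 ± 0.06) and PPAN (0.31 ± 0.07), whose exons overlap P2RY11 and a read-through gene on the same strand.

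GNL3 and RRP1 went against the rest of this group. GNL3 encodes nucleostemin, a nucleolar GTPase known for its high level in stem and tumour cells (ENSG00000163938, chromosome 3, 52681156 to 52694492, plus strand). It fell from 91.1 and 89.2 to 61.6 and 57.0 CPM, or -0.61 ± 0.04 on the log2 scale (edgeR adjusted p = 4.27e-14), the largest fall of the 41 genes. RRP1 (ENSG00000160214, chromosome 21, 43789513 to 43805293, plus strand) fell from 44.3 and 40.2 to 33.6 and 31.0 CPM (-0.39 ± 0.06, edgeR adjusted p = 1.11e-06). Both treated libraries lay below both untreated ones in each gene, and 87.9% of all tested genes lacked overlap in either direction. Per kilobase of exon, RRS1 was at 0.312 and 0.278 times GNL3 untreated and at 1.49 and 1.68 times GNL3 treated. Their order turned over on that scale alone. In CPM, RRS1 was below GNL3 in the treated libraries too, at 47.2 and 49.3 CPM.

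DDX21 and LYAR were the 2 remaining nucleolar genes. DDX21, an RNA helicase of the nucleolus, rose by 0.46 ± 0.05. LYAR was at 13.6 and 14.6 CPM untreated and 14.5 and 15.5 CPM treated, so the groups overlapped, with a change of 0.09 ± 0.09 on the log2 scale (edgeR adjusted p = 0.334).

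**Figure D3:**
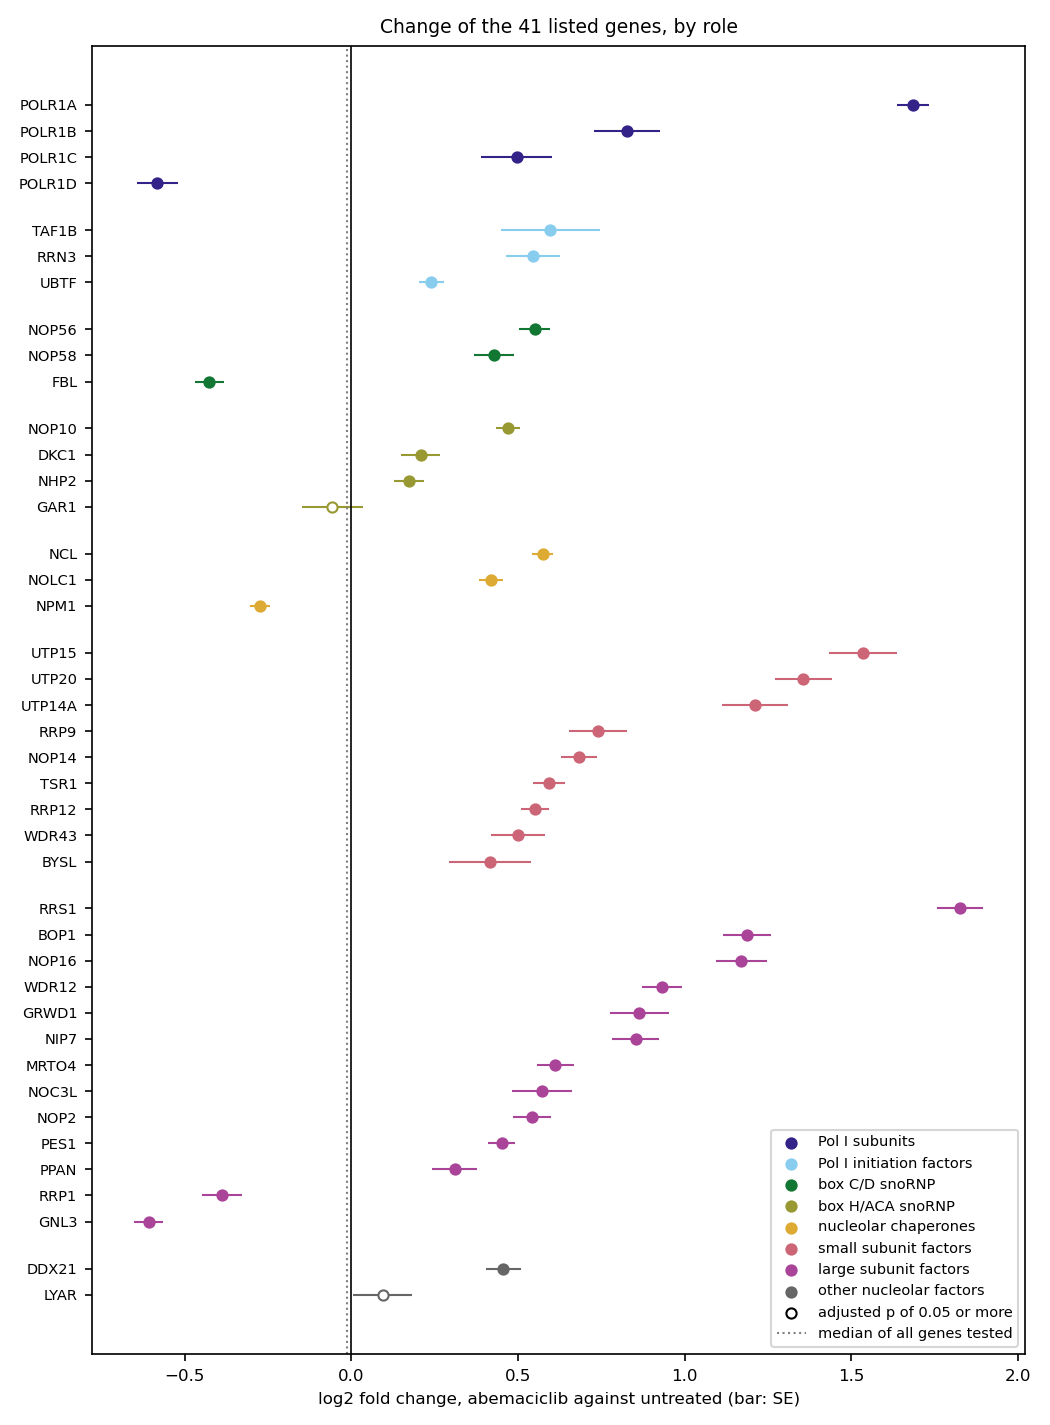
Log2 fold change of each of the 41 genes after abemaciclib, with its standard error, coloured by role. Open circles (GAR1 and LYAR) did not pass an adjusted p of 0.05, and the dotted line is the median of all genes tested, -0.01. All 9 small subunit factors lie to the right of 0, and POLR1D, FBL, NPM1, RRP1 and GNL3 to the left.

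Several of the 41 genes overlap other annotated genes. In 8 of them GENCODE 29 places snoRNA genes inside the gene on the same strand (NOP56, NOP58, DKC1, NCL, WDR43, TSR1, GNL3 and PPAN). Of these 8, 7 rose (87.5%) and GNL3 fell, which is near the 82.9% higher among the 41 genes. Over all tested genes 38% were higher and 39.3% lower. Exons of 18 of the 41 overlap exons of another gene on either strand. Of these 18 genes, 17 rose (94.4%) and 1 fell, and of the 23 without such an overlap, 17 rose (73.9%), 4 fell and 2 did not pass. A link between overlap and change was not tested. Same-strand overlaps are those of RRS1, PPAN, NOP2 (with AC006064.6) and GRWD1 (with KCNJ14). Whether reads were counted by strand is not stated in any source used here. For all 18 genes, a part of the reads could belong to the neighbour.

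To place these genes in their pathway, 156 further genes were grouped by function, 155 of which could be tested (MYCN was too low). Of these, 104 rose (67.1%), 27 fell (17.4%) and 24 did not pass, against 38% higher and 39.3% lower over all tested genes. Their median log2 fold change was 0.31. The other members of the small subunit processome changed in 1 direction: 31 of 38 rose and 0 fell (median 0.43), led by RRP36 at 1.15 ± 0.08. Late small subunit factors rose in 6 of 9 and fell in 1. PNO1 went furthest up, from 10.3 and 10.8 to 30.4 and 29.9 CPM (1.51 ± 0.08), and NOB1, the nuclease that makes the final cut of the small subunit RNA, fell from 70.7 and 67.7 to 38.7 and 40.1 CPM (-0.81 ± 0.05). RNase MRP and RNase P proteins, which cut precursor ribosomal and transfer RNA, rose in 8 of 9 and fell in 0 (median 0.70). RPP40 went furthest up, at a low level, from 0.741 and 0.917 to 2.87 and 3.04 CPM (1.82 ± 0.27).

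Large subunit assembly factors outside the 41 genes rose in 28 of 42 (66.7%) and fell in 8 (19.0%), with a median of 0.28. Over all tested genes 38% were higher and 39.3% lower. URB2 rose from 4.07 and 4.34 to 12.6 and 11.8 CPM (1.53 ± 0.12). NOP53, a nucleolar factor of large subunit maturation, fell from 98.3 and 100.7 to 24.6 and 27.4 CPM (-1.93 ± 0.05, edgeR adjusted p = 1.69e-25), a larger log2 change than that of any of the 41 genes. Late large subunit and export factors rose in 6 of 8 and fell in 0, with the GTPase LSG1 first (1.13 ± 0.07). Of 10 snoRNP assembly factors 7 rose and 2 fell, with NUFIP1 at 0.72 ± 0.11 and ZNHIT3 at -0.63 ± 0.08. Of 14 genes of the RNA exosome, which trims precursor RNA, 8 rose (57.1%) and 3 fell (21.4%), with MPHOSPH6 at 0.90 ± 0.09 and EXOSC5 at -0.83 ± 0.11.

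Regulators of ribosomal RNA synthesis went the other way. Of 10 tested, 2 rose (20.0%), 7 fell (70.0%) and 1 did not pass, with a median of -0.33, against 38% higher and 39.3% lower over all tested genes. MYC was at 103.3 and 100.7 CPM untreated and 69.5 and 71.7 CPM treated, a change of -0.53 ± 0.04 on the log2 scale (edgeR adjusted p = 1.34e-13). Its transcript was lower in both treated libraries, in which 34 of the 41 genes were higher. MYC protein was not measured, and a link between MYC and these genes was not tested. SIRT7, a deacetylase that promotes transcription by RNA polymerase I, rose furthest (0.60 ± 0.05). The list holds activators and repressors, so its count carries no direction of ribosomal RNA synthesis.

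**Figure D4:**
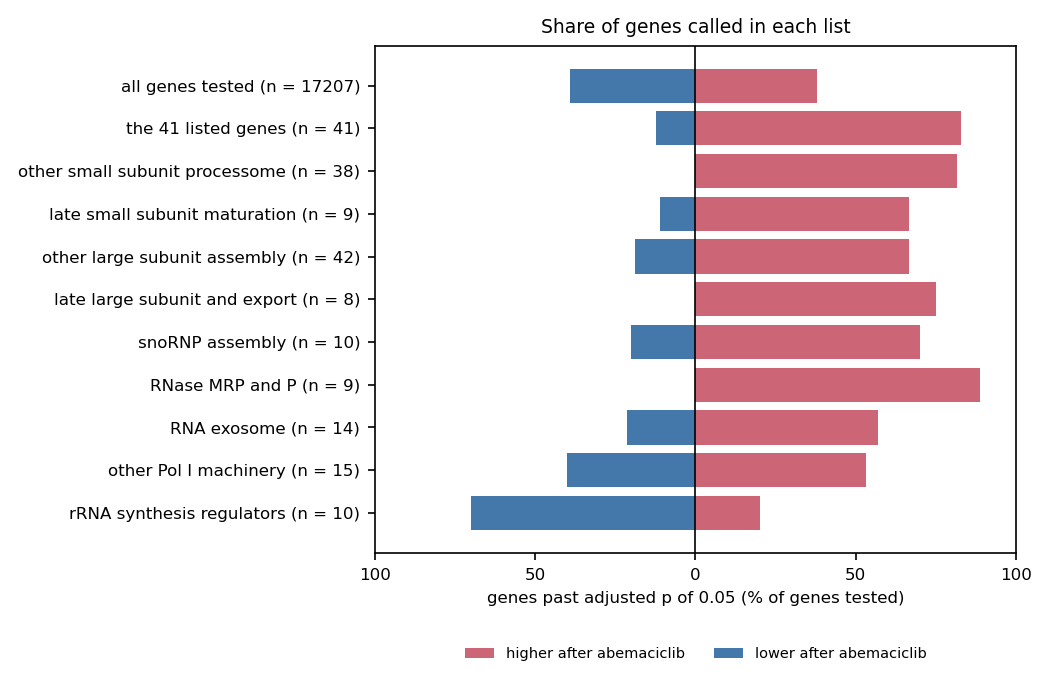
Share of tested genes called higher (red, right) or lower (blue, left) after abemaciclib at an adjusted p of 0.05, for all 17207 genes, the 41 listed genes and the other pathway lists. The 41 genes show 82.9% higher and 12.2% lower against 38% and 39.3% of all genes, and the regulators show 20.0% higher and 70.0% lower.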

How the data were processed

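Poly-A RNA of 4 U87MG sphere libraries was prepared with Trizol and TruSeq Stranded mRNA, per the labels' protocols. The deposited files give expected counts per gene, unscaled, per the file headers. STAR 2.7.2b, RSEM 1.3.1 and GRCh38 are named in the submitters' processing notes, while the annotation release and strand setting are not given in the sources used here. Groups came from sample titles.

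Expected counts were rounded (6.13% to 6.7% per library were not whole) and tested with edgeR 4.0.16 (R 4.3.3): filterByExpr, TMM, robust quasi-likelihood F test, group alone, Benjamini-Hochberg over all 17207 genes, two-sided. The standard error is the log2 fold change over the square root of F. The test was tried on simulated data. In a library 3 counts equal 0.0898 to 0.127 CPM. DESeq2 1.42.0, other scalings, no filter, a replicate block and leaving out each library were alternatives. Coordinates and exon lengths came from GENCODE 29 (96.4% of identifiers matched), and promoter sequences from RefSeq.

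The 41 genes and the lists were chosen with earlier results of these data known. Values by library are given for genes past 1.5-fold, against their group or not past the threshold, and for pathway lists the largest rise and fall, plus MYC. The largest fall among the regulators is not reported here.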

Additional observations from a re-analysis of the deposited data

How the results depend on the processing

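The counts of the 41 genes changed little. Leaving out each library in turn gave 33 to 34 higher and 5 lower (the arm left with 1 library is assumed to vary like the other), DESeq2 33 and 5, and the other settings 34 and 5. For the other pathway genes, 93 to 107 were higher and 22 to 27 lower over all settings. Of single genes, DKC1 (without untreated replicate 1) and BYSL (without abemaciclib replicate 2, and in DESeq2) missed the threshold, and GAR1, not called, turned from -0.06 to 0.002 without abemaciclib replicate 2 (leaving out 1 library gave -0.086 to 0.002). The cause was not tested. With the replicate number as a block, 34 genes were higher and 5 lower, and 104 and 27 of the other pathway genes. The block changed no call of the 41 genes. Over all tested genes it called 6451 higher and 6657 lower, against 6542 and 6757 without it. The labels do not say that a number marks a shared culture, and deviations of same-numbered libraries correlated at 0.0545 over 9432 genes. Scaling by library total moved the median of all genes from -0.012 to 0.042. With 2 libraries a group, the smallest p of an exact permutation test is 0.333, so no such test was made.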
